A study of Rattus norvegicus with 20 samples.

Results

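The opioid system of the nucleus accumbens shell comprised 8 genes here, 4 that encode peptide precursors (Penk, Pdyn, Pnoc and Pomc) and 4 that encode their receptors (Oprm1, Oprd1, Oprk1 and Oprl1). They were taken by name from the platform's gene table, and 14 of the 31099 probe sets on the array name 1 of these genes and no other, out of 14217 genes named in this way. Expression was measured in 20 alcohol-preferring (P) rats, which were selectively bred to drink ethanol by choice. In the ethanol group (n = 10 animals) the rats had access to 15 and 30% ethanol during adolescence, and in the water group (n = 10 animals) they drank water alone. Each animal gave 1 array of the shell, the ventral and medial division of the ventral striatum, and animals are named here by the number in their title. The labels give neither the sex and exact age of the rats nor the amount drunk.

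Opioid peptides are cut from large precursors in dense core vesicles, and their receptors couple to inhibitory G proteins, which lower cyclic AMP, open potassium channels and close calcium channels. Enkephalins from Penk act mainly at the delta receptor Oprd1 and the mu receptor Oprm1, dynorphins from Pdyn at the kappa receptor Oprk1, beta-endorphin from Pomc at the mu receptor, and nociceptin from Pnoc at Oprl1, which binds classical opioids poorly. In the striatum Pdyn is typical of the projection neurons (medium spiny neurons) that carry the dopamine receptor Drd1, and Penk of those that carry Drd2. Opioid antagonists are used to treat alcohol use disorder, and kappa signalling in the accumbens is studied for its aversive effects.

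Values are log2 signals after RMA, a procedure that corrects background, normalizes arrays to each other and gives 1 value per probe set. Levels of different probe sets cannot be set against each other. A probe set was called dim if its mean over the 20 arrays lay below 6.655, which marks the lowest 33.3% of the array. Of the 14 opioid probe sets 8 lay above this level and 6 were dim, and both Oprm1 probe sets and the Oprd1 probe set were among the dim ones. The brighter Oprm1 probe set, at a mean of 6.648, lay just under the level, and Pomc, at 6.99, was the member closest above it. Array medians lay between 7.93 and 7.98, but normalization makes them alike, so they are no check on single arrays. Water animals 12, 17 and 20 had outlying correlations with the other arrays. Water animals 17, 19 and 20 had the lowest means of 15 markers of medium spiny neurons (11.99, 12.16 and 11.74, against 12.37 to 12.97 in the other 17 animals). Differences of the members, medians of the main marker lists and the main correlations are therefore given with and without water animals 17, 19 and 20. These animals were chosen with earlier results of these data known, and animal 19 had no outlying correlation. The marker mean that sets them apart itself correlated with Pdyn (r = 0.98), Penk and Oprk1 (0.94 each), Pnoc (-0.93) and Oprl1 (-0.80). Leaving them out therefore shifts the differences of these genes and markers by design. The fits without them are no separate test of ethanol. The tissue carried the striatal markers Drd1 and Drd2. Drd1 was at 13.49 ± 0.20 in ethanol and 13.20 ± 0.51 in water, and Drd2 at 11.31 ± 0.22 and 11.04 ± 0.50 (SD, n = 10 each).

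No opioid peptide or receptor gene passed the test between ethanol and water animals. Of the 8 probe sets above the dim level 0 were called (limma, Benjamini-Hochberg adjustment over all probe sets, threshold 0.05), where 0.0966% of the 20695 probe sets tested were called, 20 in all. At an unadjusted p under 0.05 it was 1 of 8, a Pdyn probe set, where 12.1% of all probe sets lay under that level. The difference was positive for 6 and negative for 2 of the 8. By 1 probe set per gene, the median difference of the 6 genes tested was 0.10 on the log2 scale. That of all probe sets, which normalization keeps near 0, was -4.27e-07. Without water animals 17, 19 and 20 again 0 of 8 passed, where 0.242% of all probe sets did, and the median of the 6 genes was -0.031.

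Pdyn, the precursor of the dynorphins, had the largest difference among the members. Its brighter probe set (1383294_at) ranged from 13.39 to 13.90 in ethanol with a median of 13.69. In water it ranged from 12.49 to 13.88 with a median of 13.60. The groups overlapped over most of the ethanol range, and only water animals 17, 19 and 20, at 12.78, 12.97 and 12.49, lay below every ethanol animal. The means were 13.67 ± 0.15 and 13.44 ± 0.50 (SD, n = 10 each), a difference of 0.24 ± 0.15 (SE, 95% interval -0.081 to 0.56, adjusted p = 0.524).

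The other Pdyn probe set (1369882_at) was the member with the smallest p. It spanned 8.01 to 8.71 in ethanol (median 8.14) and 6.82 to 8.43 in water (median 7.93). All 10 ethanol animals lay above the water mean, and 5 water animals, numbers 12, 13, 17, 19 and 20, lay below the lowest ethanol animal. The difference was 0.42 ± 0.18 (SE), which is 1.34-fold, with a 95% interval of 0.047 to 0.79, and it did not pass the adjustment (adjusted p = 0.379). Without water animals 17, 19 and 20 the differences were -0.058 ± 0.069 for the brighter and 0.12 ± 0.12 for the other probe set (SE, adjusted p = 0.783 and 0.719), so that the probe sets then differed in sign.

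The sequence before the start of Pdyn is shown because this gene had the largest difference and the smallest p among the members. RefSeq's table for the rat assembly GRCr8 gives a promoter for 4 of the 8 genes (Pdyn, Pomc, Oprm1 and Oprd1). The 250 bases before the annotated start of Pdyn lie at chr3:137366504-137366753 on the minus strand and read 5′ to 3′ as follows, with a match to the TATA box letters in capitals.
Pdyn: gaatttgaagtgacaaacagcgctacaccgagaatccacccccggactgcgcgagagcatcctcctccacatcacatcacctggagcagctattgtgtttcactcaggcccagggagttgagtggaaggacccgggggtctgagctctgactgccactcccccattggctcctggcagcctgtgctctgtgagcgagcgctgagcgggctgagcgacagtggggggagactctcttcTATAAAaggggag

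The capitals mark TATAAA, whose first base lies 13 bases before the annotated start. Searched on both strands, these letters occur in 12.9% of the 33469 windows of the same length in the table. The cyclic AMP response element TGACGTCA (1.59% of all windows), its half-site TGACG, which the full element contains (18.2%), and the AP-1 site TGANTCA (6.34%) had 0 matches in this Pdyn window. The Pomc window also held TATAAA, 32 bases before its start, and the Oprm1 windows, of which there are 2, and the Oprd1 window held none of these motifs.

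Penk, the enkephalin precursor, was low in the same water animals. Its values ran from 14.14 to 14.65 in ethanol (median 14.55) and from 13.59 to 14.81 in water (median 14.47). Water animals 17, 19 and 20, at 14.11, 13.95 and 13.59, were again the only water animals below the ethanol range, and water animal 18 was above it. The low end of that range was ethanol animal 8 alone. The next ethanol animal was at 14.46, and water animals 12 and 13, at 14.45 each, also lay just below that value. The means of 14.52 ± 0.15 and 14.35 ± 0.36 (SD, n = 10 each) differed by 0.17 ± 0.12 (SE, interval -0.068 to 0.41, adjusted p = 0.538), and by -0.029 ± 0.066 (SE) without the 3 animals (adjusted p = 0.903).

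Pdyn and Penk were also compared within each array, to ask whether the precursors differed in their response. The Pdyn minus Penk value was -0.85 ± 0.091 in ethanol and -0.92 ± 0.20 in water (SD, n = 10 each). These values differed by 0.067 (two-sided permutation test, 100000 resamples, p = 0.361), and the ethanol values, from -1.03 to -0.75, lay within the water range of -1.33 to -0.67. With the mean over the probe sets of each gene the difference was 0.16 (permutation p = 0.107), without water animal 17 it was 0.021 (permutation p = 0.705), and without water animals 17, 19 and 20 it was -0.029 (permutation p = 0.559). A difference in response between the precursors was therefore not detected with these 20 arrays.

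Pnoc, the nociceptin precursor, ran the other way between animals. It lay between 7.32 and 8.05 in ethanol (median 7.56) and between 7.15 and 8.78 in water (median 7.60). Water animals 17, 19 and 20, the lowest for Pdyn and Penk, were the highest of all 20 animals for Pnoc, at 8.78, 8.29 and 8.77. With them the difference was -0.16 ± 0.19 (SE, interval -0.56 to 0.25, adjusted p = 0.747), and without them it was 0.20 ± 0.11 (SE, interval -0.036 to 0.43, adjusted p = 0.51), of the opposite sign. The mean of the 5 of 9 listed septum, pallidum and basal forebrain markers that were not dim or missing was highest in water animals 20 and 17, at 8.24 and 8.12, with water animal 19 at 7.98, against 7.74 to 8.11 in ethanol, and its lowest water value was 7.75. Of these 5 markers 1 had a positive and 4 a negative difference, and 0 passed. The mean of 7 of 11 listed markers of GABAergic interneurons was highest in water animals 20 and 19, at 10.65 and 10.57, with water animal 17, the highest for Pnoc, at 10.24, against 9.70 to 10.51 in ethanol, and its lowest water value was 9.66. Of these 7 markers 3 had a positive and 4 a negative difference, and 0 passed. The part of these cells in the Pnoc values was not tested.

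Pomc, the precursor of beta-endorphin and the melanocortins, is made mainly by hypothalamic neurons and the pituitary. Its probe set spanned 6.68 to 7.16 in ethanol (median 7.05) and 6.63 to 7.25 in water (median 6.98), so that the groups overlapped. The lowest ethanol value was that of animal 8 alone, and the next ethanol animal was at 6.93. The difference was 0.038 ± 0.069 (SE, interval -0.11 to 0.18, adjusted p = 0.839). Of 8 hypothalamic and pituitary markers on the array 6 were dim (Hcrt, Pmch, Oxt, Prl, Tshb and Cga). The remaining Avp and Gh1 lay near the dim level, with Avp at 7.08 ± 0.13 and Gh1 at 6.72 ± 0.19 in ethanol (SD, n = 10).

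**Figure D1:**
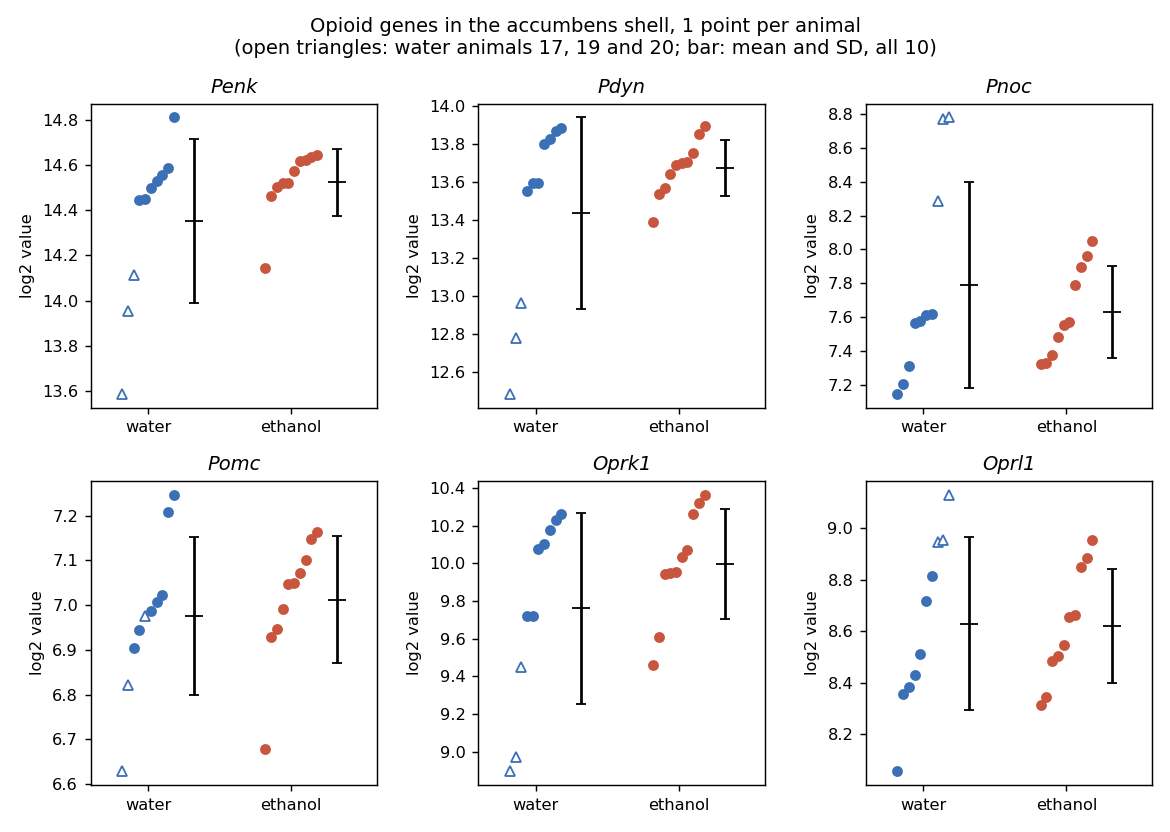
Log2 values of the 6 opioid genes above the dim level in each animal, by group, in a panel per gene, with the mean and SD of all 10 animals beside each group. Open triangles mark water animals 17, 19 and 20, which are the 3 lowest water animals for Penk, Pdyn and Oprk1 and the 3 highest for Pnoc and Oprl1.

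Among the receptors, the kappa receptor gene Oprk1 had the largest difference. Its brightest probe set (1368197_at) ranged from 9.46 to 10.36 in ethanol (median 9.99) and from 8.90 to 10.26 in water (median 9.90). As for Pdyn and Penk, water animals 17, 19 and 20 held the 3 lowest values, 8.97, 9.45 and 8.90, and the other 7 water animals lay within the ethanol range. The SD was 0.29 in ethanol and 0.51 in water (n = 10 each), and the water mean of 9.76 lay below the ethanol mean, a difference of 0.24 ± 0.17 (SE, interval -0.12 to 0.59, adjusted p = 0.567). Without the 3 animals the difference was -0.044 ± 0.12 (SE, adjusted p = 0.922). A further Oprk1 probe set (1387102_at) differed by 0.049 ± 0.14 (SE, adjusted p = 0.905) and a dim one (1368198_at) by 0.036 ± 0.093 (SE).

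Oprl1, the nociceptin receptor, showed the smallest difference of the 6 genes above the dim level. Its brightest probe set (1369646_at) covered 8.31 to 8.95 in ethanol (median 8.60) and 8.06 to 9.13 in water (median 8.61). Water animals 20, 17 and 19 were the highest of their group, as for Pnoc, at 9.13, 8.95 and 8.95. The groups differed by -0.00996 ± 0.12 (SE, interval -0.26 to 0.24, adjusted p = 0.98), and by 0.15 ± 0.11 (SE) without these animals (adjusted p = 0.601). Its dim probe sets (1369645_at and 1387661_a_at) differed by 0.052 and 0.010.

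The mu and delta receptor genes gave only dim signals, and their values come from a fit without the filter on dim probe sets. Oprm1 (1387461_at) lay between 6.50 and 6.95 in ethanol (median 6.71) and between 6.35 and 6.77 in water (median 6.59), so that the groups overlapped. Its difference of 0.11 ± 0.058 (SE, interval -0.013 to 0.23, adjusted p = 0.519) was nearly the same without water animals 17, 19 and 20, at 0.12 ± 0.066 (SE, adjusted p = 0.606). The other Oprm1 probe set (1369109_at), at a mean of 4.65, differed by 0.031 ± 0.042 (SE). Oprd1 (1368791_at) spanned 5.45 to 5.79 in ethanol (median 5.63) and 5.31 to 5.78 in water (median 5.55), with a difference of 0.078 ± 0.051 (SE, interval -0.028 to 0.18, adjusted p = 0.591). Dim signal carries little information on either receptor, and RMA shrinks differences there. How near these values lie to background was not measured.

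**Figure D2:**
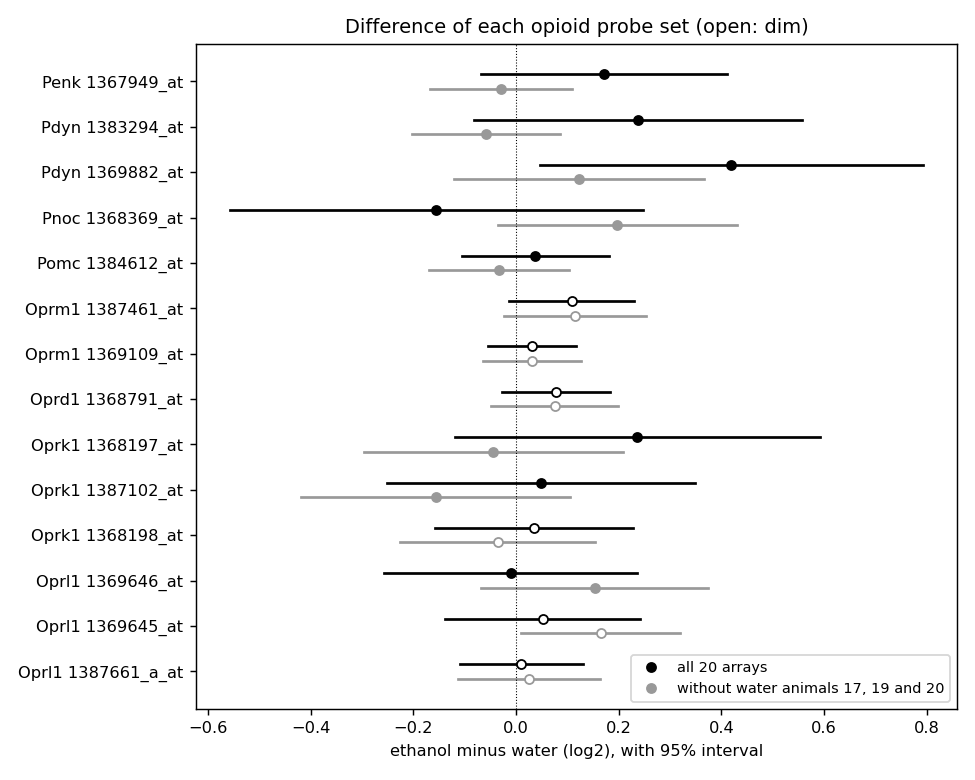
Difference between ethanol and water (log2) with its 95% interval for the 14 opioid probe sets, from all 20 arrays (black) and without water animals 17, 19 and 20 (grey). Open points are dim. Intervals that leave out 0 are those of Pdyn 1369882_at with all arrays and of the dim Oprl1 1369645_at without the 3 animals (0.0099 to 0.32), and neither passed after adjustment (adjusted p = 0.379 and 0.504).

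The spread between animals was larger in water. Of the 8 probe sets above the dim level 8 had a larger SD in water than in ethanol, and so had 81.3% of all probe sets tested. By 1 probe set per gene, the ratio of the SDs was 3.39 for Pdyn, 2.45 for Penk, 2.24 for Pnoc, 1.74 for Oprk1, 1.51 for Oprl1 and 1.25 for Pomc, beside a median of 1.47 over all probe sets tested. It was 2.42 for the other Pdyn probe set (1369882_at) and 1.13 for the further Oprk1 probe set (1387102_at). Without water animals 17, 19 and 20 the water SD of Pdyn was 0.14 and that of Penk 0.12, against 0.15 in ethanol for both genes. These were the lowest water animals for both genes, so leaving them out lowers the water SD by design. No ethanol animal was left out, and the spreads are therefore not compared on equal terms.

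Across animals the opioid genes varied together in a shared pattern. Penk, Pdyn, Oprk1 and Pomc correlated positively with each other from animal to animal, and Pnoc and Oprl1 correlated positively with each other and negatively with the rest. With the group means removed, 7 of the 15 pairs correlated positively and 8 negatively, and 13 of 15 passed (permutation within groups, 100000 resamples, Benjamini-Hochberg over 39 relations). The pairs that did not pass were Penk with Pomc (Pearson r = 0.48, Spearman rho = 0.41, adjusted permutation p = 0.0546 and 0.0914) and Pomc with Oprl1 (r = -0.39, rho = -0.31, adjusted permutation p = 0.115 and 0.197). The share of other gene pairs that would pass was not computed, so the pattern cannot be called particular to the opioid genes. All 15 pairs kept their sign within ethanol alone, within water alone and in the 17 animals without water animals 17, 19 and 20. Correlations were weaker in these 17 animals for all 15 pairs, with r going from -0.80 to -0.38 for Penk and Pnoc and from 0.79 to 0.48 for Penk and Oprk1. For Pomc and Oprk1 r went from 0.57 to 0.56. The correlations in the 17 animals were not tested.

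The dynorphin precursor and its receptor gene correlated, with an r over 20 arrays close to that of Pdyn with Penk and, in the opposite direction, with Pnoc. Pdyn and Oprk1 correlated at r = 0.92 and rho = 0.90 (n = 20, adjusted permutation p = 2.44e-05 and 4.33e-05, from unadjusted values of 1e-05, the smallest that these resamples can give), at r = 0.85 without water animals 20 and 17, which were farthest from the median, at r = 0.86 within the 10 ethanol animals and at r = 0.83 in the 17 animals. Pdyn and Penk correlated at r = 0.93 and rho = 0.90 (adjusted permutation p = 2.44e-05 and 6.50e-05), at r = 0.85 without the farthest animals, at r = 0.81 within ethanol and at r = 0.75 in the 17 animals. Pdyn and Pnoc were opposed, at r = -0.93 and rho = -0.83 (adjusted permutation p = 4.11e-05 and 0.000325), at r = -0.86 without the farthest animals, at r = -0.78 within ethanol and at r = -0.70 in the 17 animals. Nociceptin's precursor and receptor gene, Pnoc and Oprl1, correlated at r = 0.74 and rho = 0.67 (adjusted permutation p = 0.000881 and 0.00435), at r = 0.63 without the farthest animals, at r = 0.55 within ethanol and at r = 0.47 in the 17 animals.

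These patterns ran along the markers of medium spiny neurons. Pdyn correlated with the mean of the 15 markers at r = 0.98 and rho = 0.96 (adjusted permutation p = 2.44e-05 and 4.33e-05), and at r = 0.96 without its farthest animals. Penk and Oprk1 did so at r = 0.94 each (rho = 0.90 and 0.95, both with an adjusted permutation p of 2.44e-05 for r), and Pnoc at r = -0.93 (rho = -0.84, adjusted permutation p = 2.44e-05 for r). Within the 10 ethanol animals, which do not include the 3 water animals that stood apart, r was 0.92 for Pdyn, 0.85 for Penk, 0.88 for Oprk1, -0.83 for Pnoc and -0.74 for Oprl1. In the 17 animals it was 0.91, 0.82, 0.85, -0.73 and -0.65 for these genes in the same order. Pomc correlated with the same markers at r = 0.56 (rho = 0.58, adjusted permutation p = 0.0205 and 0.014), and at r = 0.41 without water animal 19 and ethanol animal 8. In such bulk tissue, fewer cells of a type and less RNA per cell cannot be told apart.

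Both precursors followed the markers of both projection neuron classes. Pdyn correlated at r = 0.95 with 7 markers of Drd1 neurons and at r = 0.98 with 3 markers of Drd2 neurons, and Penk at r = 0.88 and r = 0.93. In the 17 animals these were 0.80 and 0.92 for Pdyn and 0.77 and 0.84 for Penk, and the differences between these correlations were not tested. Drd1 was 0.29 higher in ethanol (adjusted p = 0.46), Tac1, the substance P precursor of the same neurons, 0.52 higher (adjusted p = 0.467), Drd2 0.27 higher (adjusted p = 0.487) and the adenosine receptor gene Adora2a 0.37 higher (adjusted p = 0.428), and none of these passed. The median difference of the Drd1 neuron list was 0.13 with all arrays and 0.00069 without water animals 17, 19 and 20, and that of the Drd2 neuron list 0.32 and -0.0038. The mean of 12 oligodendrocyte markers ran against Pdyn (r = -0.75, rho = -0.74, adjusted permutation p = 0.000149 and 0.000905, r = -0.68 in the 17 animals) and with Pnoc (r = 0.81, rho = 0.75, adjusted permutation p = 2.44e-05 and 0.000712, r = 0.75 in the 17 animals). Oprk1 (r = -0.86), Pomc (r = -0.73) and Penk (r = -0.66) ran against this mean too, and Oprl1 ran with it (r = 0.55). In the 17 animals r was -0.81, -0.71, -0.47 and 0.27 for these genes in the same order.

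**Figure D3:**
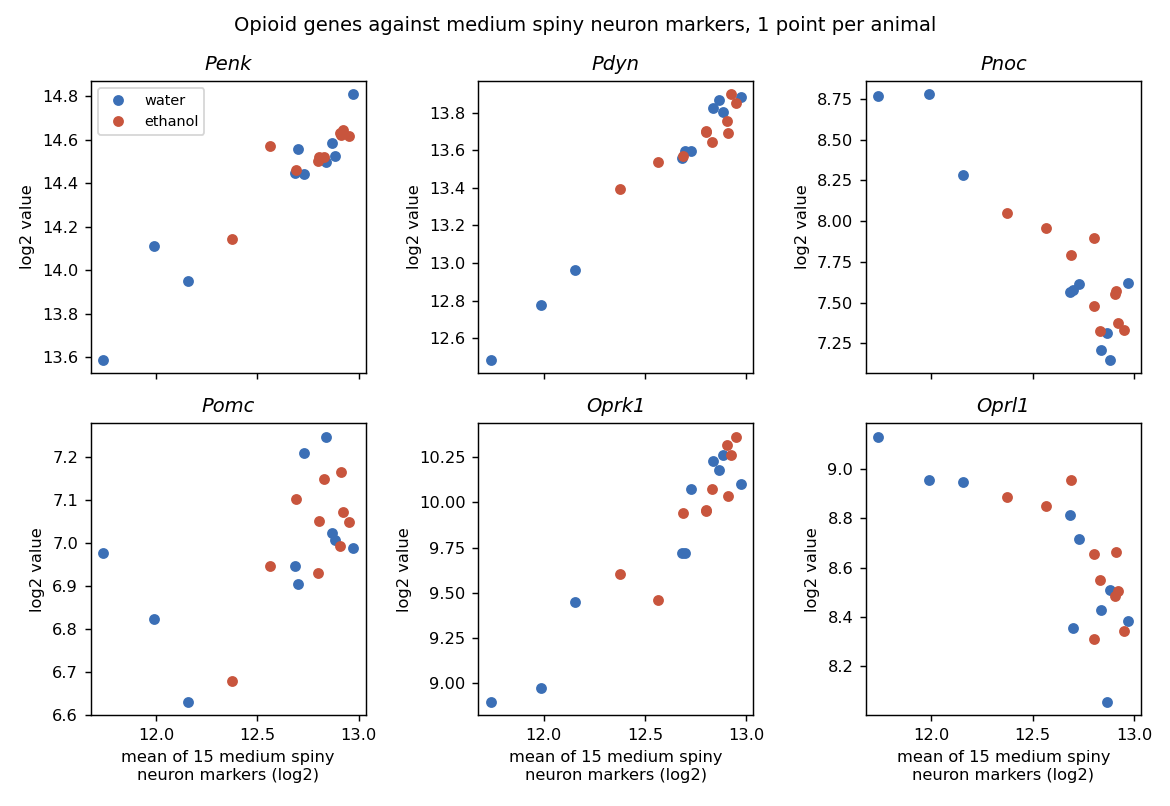
Log2 value of each of the 6 opioid genes above the dim level against the mean log2 value of 15 medium spiny neuron markers, with a point per animal and colours for the groups. Penk, Pdyn and Oprk1 rise along the axis and Pnoc and Oprl1 fall, in ethanol and water animals alike, and the points at the far left are water animals 20, 17 and 19.

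The 15 markers tested were all higher in ethanol on average, 0 of them passed, and their median difference was 0.18 with all arrays and -0.033 without water animals 17, 19 and 20. The list mean ranged from 12.37 to 12.95 in ethanol and from 11.74 to 12.97 in water. All 12 oligodendrocyte markers tested were lower on average and 0 passed, with a median difference of -0.16 that was -0.019 without the 3 animals. Their mean ranged from 11.36 to 12.27 in ethanol and from 11.38 to 12.30 in water. With the medium spiny neuron mean as a covariate the differences between ethanol and water were -0.00401 for Pdyn, -0.000808 for Penk and -0.021 for Oprk1 (adjusted p = 0.983, 0.997 and 0.944). Pnoc and Oprl1 differed by 0.14 each in that fit (adjusted p = 0.544 and 0.524). Other cell types gave 0 calls too, with a positive difference for 6 of 7 markers of Drd1 neurons, 3 of 3 of Drd2 neurons, 3 of 4 cholinergic, 3 of 10 astrocyte, 1 of 10 microglia, 5 of 6 endothelial, 2 of 2 cortical excitatory, 0 of 2 striosome and 4 of 4 striatal matrix markers. The part of cell makeup in the member differences was not tested beyond these values.

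**Figure D4:**
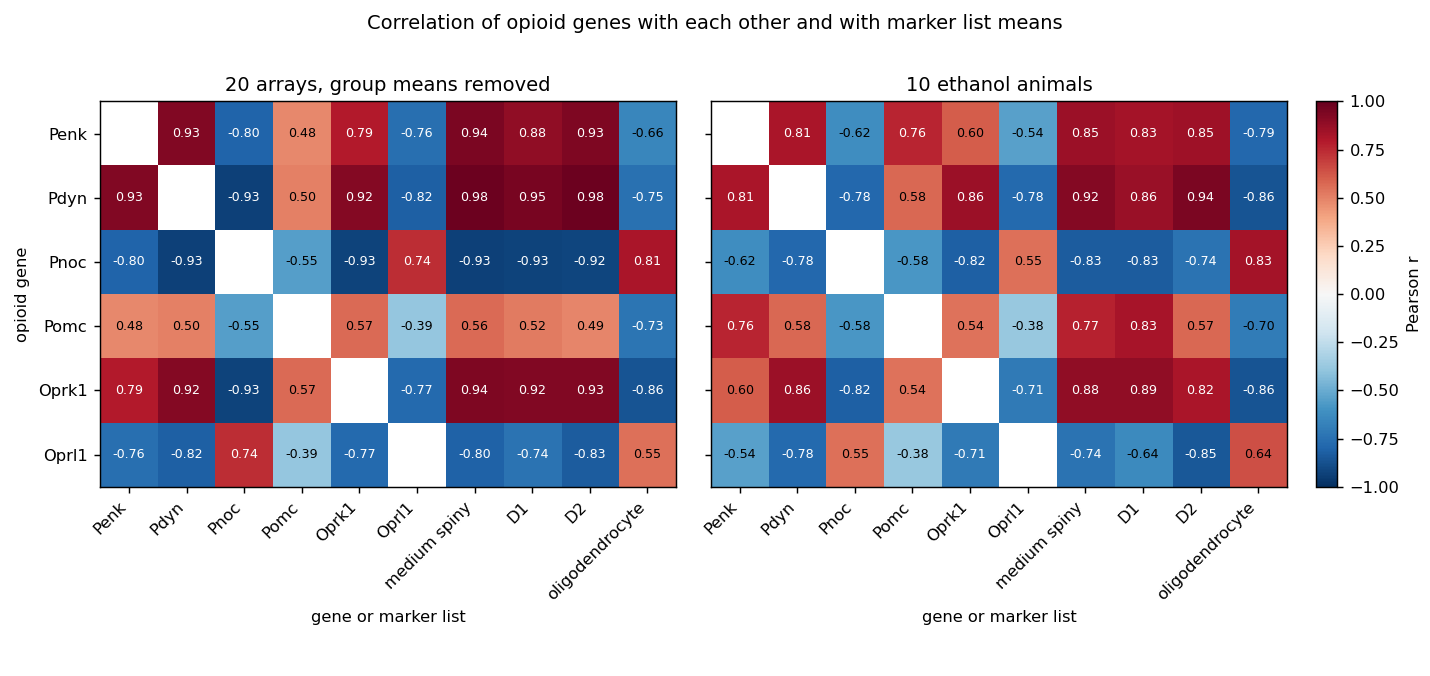
Pearson r between the 6 opioid genes above the dim level (rows) and the same genes and 4 marker list means (columns), over all 20 arrays with group means removed (left) and within the 10 ethanol animals (right). Red is positive and blue negative, and the signs are the same on both sides for every cell.

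The genes most like each member were sought among 10661 named genes by Pearson r over the 20 arrays with group means removed, as a description without a test. Pdyn was closest to Kctd1 (r = 0.99), Syndig1, a synapse-inducing membrane protein (0.98), and Ramp1, a partner of the calcitonin receptor-like receptor (0.98). Penk was closest to Arel1, a ubiquitin ligase (0.98), Arpp19, a cyclic AMP-regulated phosphoprotein (0.97), and Ngef (0.97). For both precursors the most opposed gene was Cox7a2l, a factor of the respiratory chain (-0.97 and -0.94). Oprk1 went with Rcn1 (0.98), Jcad (0.97) and Cbr3 (0.97) and against Hpcal1, a neuronal calcium sensor (-0.96). Pnoc was nearest to Snx8 (0.96), the heparan sulfatase gene Sulf2 (0.96) and Phlda3 (0.95), with the potassium channel subunit gene Kcnab1 at -0.96. The nearest genes of Oprl1 were Rgmb (0.92), Samd14 (0.91) and Camk2d (0.90), and Slc4a11 was the most opposed (-0.90). Pomc had the loosest company, with Dis3l2 (0.77), St3gal2 (0.76) and Sbk1 (0.75), and Nkx6-2, a transcription factor of oligodendrocytes, at -0.83. Without water animals 17, 19 and 20 most of these correlations were weaker. Cox7a2l was then at -0.83 with Pdyn and -0.80 with Penk, Kctd1 at 0.92 with Pdyn, Arel1 at 0.89 with Penk, Phlda3 at 0.80 with Pnoc and St3gal2 at 0.61 with Pomc. Nkx6-2 was at -0.88 with Pomc.

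The enzymes that make and destroy opioid peptides, and the proteins through which their receptors signal, gave 0 calls as well. Of 10 genes of precursor processing tested, which include the convertase Pcsk2 and the carboxypeptidase Cpe, 5 had a positive and 5 a negative difference (median 0.0064). The 2 with the smallest p were the vesicle granins Scg2 (-0.13, adjusted p = 0.327) and Chga (-0.25, adjusted p = 0.361). Among 5 genes of peptide breakdown tested, 2 had a positive and 3 a negative difference (median -0.038), with Ece1 at -0.085 (adjusted p = 0.48) and Mme, which encodes the enkephalin-cleaving peptidase neprilysin, at 0.25 (adjusted p = 0.597). Of 23 signalling genes tested, 14 had a positive and 9 a negative difference (median 0.016), and the smallest p belonged to Rgs9, a striatal regulator of G protein signalling (0.35, adjusted p = 0.394), and Gnao1, an inhibitory G protein subunit (0.095, adjusted p = 0.49). Rgs9 and Adcy5 of this list are also among the medium spiny neuron markers, so the lists are not separate.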

How the data were processed

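Biotin-labelled cRNA from 50 ng of total RNA was hybridised to 1-colour Affymetrix arrays, per the labels' protocols. The authors deposited log2 values made with RMA, per the submitters' processing notes. The software, version and chip definition behind RMA were not given in the sources used here. RMA can mask a change common to most genes and shrinks dim differences, and 3' labelling makes values sensitive to RNA integrity.

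Members and gene lists were chosen with earlier results of these data known. Probe sets were named by the platform's gene table (1 gene for 20832, several for 436), symbols were checked against RefSeq (20758 matched), and 57 control probe sets were left out. The 33.3% of probe sets with the lowest mean (below 6.655) were left out of the main fit, which left 20695. The groups were compared with limma 3.58.1 in R 4.3.3 (linear model with moderated variance, two-sided tests, no covariates), with Benjamini-Hochberg adjustment over all of them at 0.05. A gene was represented by its brightest probe set. All members are named, of each pathway list the 2 genes with the smallest p, and of the cell type lists Drd1, Tac1, Drd2 and Adora2a, which define the projection neuron classes. Outside this rule, Pcsk2 and Cpe are named as examples of processing, and the hypothalamic and pituitary markers on the array beside Pomc. The 3 genes with the highest and the 1 with the lowest correlation with a member are also named. Single values used permutation tests of 100000 resamples. The number of arrays limits precision. The limma fit and the permutation test between groups were tested on simulated independent values with equal spread in both groups. Other steps were not tested in this way. Alternatives varied the filter, normalization, variance model, weights, arrays, covariates and probe set choice.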

Additional observations from a re-analysis of the deposited data

Results flagged for a closer look

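Of 28 sets of 10 values, a set being 1 opioid probe set in 1 group, 3 held an animal far from the rest by Dixon's test, and chance alone gives about 1 in 20. Ethanol animal 8 was low for Penk, at 14.14 where the next animal was at 14.46. The same animal was low for Pomc, at 6.68 where the next was at 6.93, and its mean of the medium spiny neuron markers (12.37) was the lowest of the ethanol group. Water animal 20 was high on the dim Oprl1 probe set 1369645_at, at 7.21 where the next was at 6.69.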

How the results depend on the processing

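In all 13 alternatives and all 20 fits that left out 1 animal, 0 opioid probe sets passed. Over all probe sets 20 passed, 10 with those below the median left out (a filter that also removed Pnoc and Pomc), 38 with array weights, 50 without water animals 17, 19 and 20, 7 with the 3' minus 5' value as covariate and 44 with the medium spiny neuron markers. Signs of the uncalled differences did depend on the setting. Without water animals 17, 19 and 20 they turned for Penk (-0.029), Pdyn (-0.058), Pnoc (0.20), Pomc (-0.033), Oprk1 (-0.044), Oprl1 (0.15) and Pdyn minus Penk (-0.029). These animals were the lowest of the water group for Penk, Pdyn and Oprk1 and the highest for Pnoc and Oprl1. Leaving them out therefore moves the differences of these genes in that direction by design. With the medium spiny neuron markers as covariate the signs turned for Penk (-0.000808), Pdyn (-0.00401), Pnoc (0.14), Pomc (-0.022), Oprk1 (-0.021) and Oprl1 (0.14), and with the oligodendrocyte markers for Pnoc (0.075), Pomc (-0.033) and Oprl1 (0.085). Without the outlying water animals 12, 17 and 20 Pnoc was at 0.095, Oprk1 at -0.0053, Oprl1 at 0.13 and Pdyn minus Penk at -0.016. With array weights Pnoc was at 0.062 and Oprl1 at 0.097, and Oprl1 was at 0.047 with the 3' minus 5' value and at 0.017 as the mean of its probe sets. Leaving out 1 animal gave -0.074 to 0.046 for Oprl1 and -0.00079 to 0.075 for Pomc. Without water animal 20 the differences were 0.086 for Penk, 0.13 for Pdyn, 0.14 for Oprk1 and -0.046 for Pnoc. Without water animal 17 they were 0.15 for Oprk1, 0.021 for Pomc and -0.045 for Pnoc, and without water animal 19 that of Pnoc was -0.0999. Without water animal 14 that of Oprd1 was 0.051. Oprm1 and Oprd1 kept a positive difference in their 13 alternatives, at 0.070 to 0.15 and 0.058 to 0.096. The cause of these shifts was not tested. Dim signal limits what can be said of Oprm1 and Oprd1.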

Other observations

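The 3' minus 5' value of the control probe sets for beta-actin and Gapdh, a measure that grows as RNA degrades, had a mean of 1.21 in ethanol (1.06 to 1.43) and 1.40 in water (1.10 to 1.70). With it as a covariate the differences were 0.24 for Penk, 0.28 for Pdyn, -0.14 for Pnoc, 0.078 for Pomc and 0.28 for Oprk1, against 0.17, 0.24, -0.16, 0.038 and 0.24 without it, and none passed. Its part in the opioid values was not tested beyond this fit.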
